A study of Homo sapiens with 16 samples.

Results

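The proteasome subunit genes were taken as every gene of the count table whose symbol is PSMA, PSMB, PSMC or PSMD followed by a number, without the inducible PSMB8 and PSMB9. This rule gave 37 of 42351 genes. By name, 17 of these were grouped as core particle genes (PSMA and PSMB) and 20 as regulatory particle genes (PSMC and PSMD). The regulatory group includes the assembly chaperones PSMD5, PSMD9 and PSMD10, which enter every regulatory count, median and sum below. The proteasome subunits ADRM1 and SEM1 are not matched by the rule and were followed separately. The 20 regulatory and 15 of the core genes passed the filter on low counts, as did 15067 genes of the whole table. PSMA8, a testis subunit, had 0 counts in all 16 libraries, which allows up to 3 counts in each. PSMB11, a thymus subunit, had at most 2 counts in any library. Neither was tested.

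The proteasome is the protease that degrades proteins tagged with ubiquitin. Its core particle is a barrel of α subunits (PSMA), which form the gate, and β subunits (PSMB), which carry the proteolytic sites. The regulatory particle caps the barrel. It recognises and removes ubiquitin through its PSMD subunits and unfolds and threads the substrate through a ring of PSMC ATPases. Cells regulate many of the subunit genes together, in part through the transcription factor NFE2L1.

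Polyadenylated RNA was sequenced from A549, a lung adenocarcinoma line named by the sample labels as the line with wild-type MET (wt MET), and from NCI-H596, a lung adenosquamous carcinoma line whose MET lacks the juxtamembrane exon (MET∆14). Serum was withdrawn from both lines before hepatocyte growth factor (HGF), the MET ligand, was added for 0, 3, 6 or 12 h. Each of the 8 conditions had 2 biological replicates. The study asked how cells expressing each form of MET respond to HGF. The labels and the study's methods give different lengths of serum withdrawal, and the study's text abbreviates another line, EKVX, as WT. Each MET status was represented by 1 cell line, so the line and the MET status cannot be told apart. The only library pair without HGF in each line was at 0 h, so HGF and the time elapsed without serum cannot be told apart either.

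The libraries held between 10158590 and 23909304 counts (median 15811012), of which the 37 genes took between 0.415% and 0.564%. CDKN2A, which is deleted in A549, had 0 counts in every wt MET library, and MTAP, deleted with it, had between 5 and 23. The squamous keratin KRT5 lay between 1743 and 2461 CPM (counts scaled by TMM library size) in the MET∆14 libraries and had at most 3 counts in wt MET libraries. The leukocyte marker PTPRC had at most 2 counts in any library, while the collagen gene COL3A1 reached 170.1 to 328 CPM in MET∆14 libraries. The lung markers NKX2-1 and SFTPB had at most 18 and 0 counts in any library. The MET∆14 pair at 12 h stood apart. The chi-square of its counts over the genes tested, divided by the degrees of freedom, was 32.9, against 2.69 to 9.42 in the other pairs. Over the proteasome genes alone it was 22.1. Results that rest on this pair are given with and without it.

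Before HGF, the lines differed in the transcripts of both particles. Regulatory transcripts were mostly lower in MET∆14 cells, whereas core transcripts differed in both directions. Of the 20 regulatory genes, 15 were lower in MET∆14 cells and 2 higher, PSMD2 and PSMD4. Of the 15 core genes, 7 were higher and 6 lower. The call of PSMD10, among the lower genes, held under 4 of 27 alternative settings. Those of PSMA6, PSMB2, PSMB4 and PSMA7 held under 22, 23, 23 and 26, and the other 0 h calls under all 27. Over all 35 genes, 9 were higher and 21 lower (25.7% and 60.0%), beside 40.6% and 39.6% of all genes tested. The tests were edgeR's quasi-likelihood F tests over all 16 libraries, with Benjamini-Hochberg adjustment over the 15067 genes and a threshold of 0.05, as everywhere below. The median log2 difference was 0.03 for the core and -0.68 for the regulatory genes, beside 0.02 for all genes tested. In bulk RNA, fewer cells of a type and less RNA per cell cannot be told apart.

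**Figure D1:**
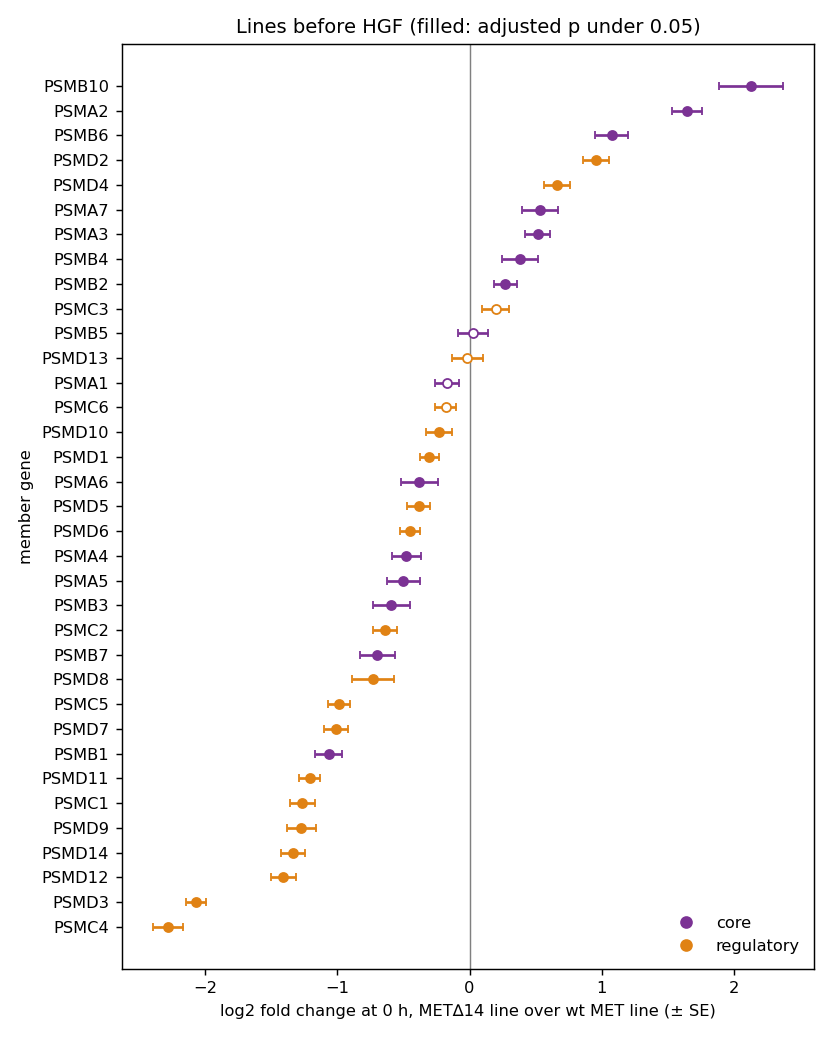
Log2 fold change at 0 h of the MET∆14 line over the wt MET line for each of the 35 proteasome genes tested (points, ± SE from the fit, n = 2 libraries a line), coloured by particle and filled where the adjusted p was under 0.05. Regulatory genes fill most of the lower end, down to PSMC4 at -2.28, and core genes the upper end, up to PSMB10 at 2.13.

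The ATPase gene PSMC4 had 404 and 460.1 CPM in the wt MET replicates and 87.5 and 90.3 in the MET∆14 replicates (-2.28 on the log2 scale, SE 0.113, adjusted p = 4.71e-11). The lid genes PSMD3 and PSMD12 followed. PSMD3 had 375 and 382 CPM in wt MET and 90.0 and 90.3 CPM in MET∆14 cells (-2.07 on the log2 scale, SE 0.0771, adjusted p = 2.12e-12). PSMD12 had 233 and 282 against 93.7 and 100.1 CPM (-1.41 on the log2 scale, SE 0.0945, adjusted p = 1.63e-09). In each of the 3 genes the lines did not overlap. At the other end stood PSMB10, which replaces the catalytic subunit PSMB7 in the immunoproteasome. It had 7.96 and 7.0 CPM in wt MET and 35.0 and 30.6 in MET∆14 cells (2.13 on the log2 scale, SE 0.243, adjusted p = 1.28e-06). The gate subunit PSMA2 had 69.5 and 81.2 against 241 and 229.6 CPM, and the catalytic PSMB6 had 43.4 and 48.1 against 97.4 and 95.5 CPM, with log2 fold changes of 1.64 (SE 0.114) and 1.08 (SE 0.124). Both were thus higher in MET∆14 cells without overlap. The catalytic PSMB5 showed no such gap, with 118 and 120.3 CPM in wt MET and 123 and 120.3 CPM in MET∆14 cells, and the catalytic PSMB7 was lower (log2 fold change -0.70, adjusted p = 0.000220). The transcripts of the α subunits thus differed between the lines in both directions. PSMA2, PSMA3 and PSMA7 were higher in MET∆14 cells, PSMA4, PSMA5 and PSMA6 lower, and PSMA1 was not called, with 128 and 150.2 CPM in wt MET and 120.0 and 127 in MET∆14 cells. Of the structural β subunits, PSMB2 and PSMB4 were higher in MET∆14 cells (0.27 and 0.38 on the log2 scale) and PSMB1 and PSMB3 lower (-1.07 and -0.59). Of the ATPase transcripts, PSMC1, PSMC2, PSMC4 and PSMC5 were lower in MET∆14 cells, while PSMC3 and PSMC6 were not called. The value of PSMC1 is uncertain, as given below. PSMC3 had 104 and 109 CPM in wt MET and 116 and 127 in MET∆14 cells, without overlap but not past the threshold (log2 fold change 0.20, adjusted p = 0.0847). All of the PSMA2 transcript also lies in another gene on the same strand. So do 81.4% of the PSMA6, 67% of the PSMA1, 56.1% of the PSMB10 and 28.8% of the PSMD9 transcript. The counts of these genes depend on how shared reads were assigned.

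Per kilobase of the MANE Select transcript (RPKM), the levels within a line spread widely. All counts of a gene were divided by the length of that transcript alone, such as 762 bases for PSMB3 and 4426 for PSMB2. The order of the genes thus also rests on these lengths, whichever transcripts the cells make. The highest in wt MET cells at 0 h were PSMC4 (246 ± 22.4 RPKM, SD, n = 2), PSMB1 (246 ± 16.9) and PSMB7 (239 ± 33.0), which differed by less than the spread between replicates. Those in MET∆14 cells were PSMA7 (315 ± 1.22), PSMB4 (251 ± 6.37) and PSMA2 (164 ± 5.82), each apart from the next by more than that spread. The lowest gene was PSMB10 in wt MET cells (7.65 ± 0.694 RPKM) and PSMD9 in MET∆14 cells (9.08 ± 0.226 RPKM). The median core gene stood at 97.0 RPKM in wt MET and 116 in MET∆14 cells, and the median regulatory gene at 58.9 and 43.6. Across the 35 genes the log2 levels of the lines correlated with Pearson's r = 0.685 and Spearman's rho = 0.723, values that share the same transcript lengths and are given as a description.

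In the fit over all 16 libraries, the proteasome genes called higher after HGF were regulatory ones, between 2 and 10 of the 20 at each time. No core gene was called higher there at any time in either line. Other fits did call core genes higher, some of those without a single library among them. Without both 12 h MET∆14 libraries, 1 core gene was higher at 12 h in wt MET cells (PSMB7). In MET∆14 cells 1 was then higher at 3 h (PSMA7) and 4 at 6 h. With a correction for transcript length and GC content, 1 core gene was called higher at 6 h (PSMA1) and 2 at 12 h (PSMA1 and PSMB7) in wt MET cells, and 2 at 6 h (PSMA7 and PSMB5) and 2 at 12 h (PSMA1 and PSMA7) in MET∆14 cells. In wt MET cells, 4 regulatory genes were higher and no gene lower at 3 h, 4 higher and 3 lower at 6 h, and 6 higher and 1 lower at 12 h. The higher genes made up 11.4%, 11.4% and 17.1% of the 35, beside 10.3%, 16.4% and 16.9% of all genes tested, so the shares were near or below the background. The lower genes made up 0%, 8.57% and 2.86%, beside 7.16%, 17.8% and 18.2%. The 3 h calls were the least firm, since 0 were left without wt MET 0 h replicate 1 or without either 3 h library, and 2 without either 6 h library. At 12 h, 3 were left higher without wt MET 0 h replicate 1 or without either 12 h library. When the counts were scaled by library size alone, the median of all genes shifted to -0.13 at 3 h and -0.16 at 6 h, no proteasome gene was higher at 3 h, and the 4 at 6 h remained. The lower genes then numbered 2 at 3 h, 5 at 6 h and 3 at 12 h. Without both 12 h MET∆14 libraries, which share the estimate of spread, 7 were higher and 5 lower at 6 h in wt MET cells (beside 21.5% and 22.9%), and 8 higher and 3 lower at 12 h (beside 22.8% and 23.2%). At 3 h, 5 were higher and 1 lower (beside 15.1% and 12.7%). The 3 lower at 6 h were down to 0 without wt MET 0 h replicate 2 or either 6 h library, and 1 without either wt MET 12 h library. The single lower gene at 12 h became 0 without wt MET 0 h replicate 2 or either 12 h library and 2 without wt MET 0 h replicate 1.

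The MET∆14 line had 2 regulatory genes higher at 3 h, 10 at 6 h and 7 at 12 h, and 0, 0 and 4 genes lower. At 6 h, 50% of the regulatory and none of the core genes were higher, 28.6% of the 35, beside 21.6% of all genes tested. At 3 and 12 h the higher genes were 5.71% and 20% of the 35, beside 15.5% and 18.3%. The lower genes were 11.4% at 12 h beside 20.1%, while 16.1% and 22.5% of all genes were lower at 3 and 6 h. Without both 12 h MET∆14 libraries, 21 of the 35 were higher at 6 h, 17 regulatory and 4 core, and 2 regulatory genes lower (60% and 5.71%, beside 28% and 26.1% of the genes tested). The 4 core genes were PSMA1, PSMA7, PSMB2 and PSMB5. At 3 h, 7 were higher and 0 lower (20%, beside 22.7% and 19.5%). Of single libraries, the 3 h count fell to 0 without 0 h replicate 1 or 3 h replicate 1 and to 1 without 0 h replicate 2 or 3 h replicate 2. The 6 h count was 17 and 16 without 12 h replicate 1 and 2, 5 without 0 h replicate 1 and 6 without 6 h replicate 2. With library size alone the median of all genes moved to -0.17, 4 regulatory genes were higher at 6 h, 2 lower, and the core median turned from 0.04 to -0.09. The 4 were PSMD11, PSMD12, PSMD14 and PSMD6.

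**Figure D2:**
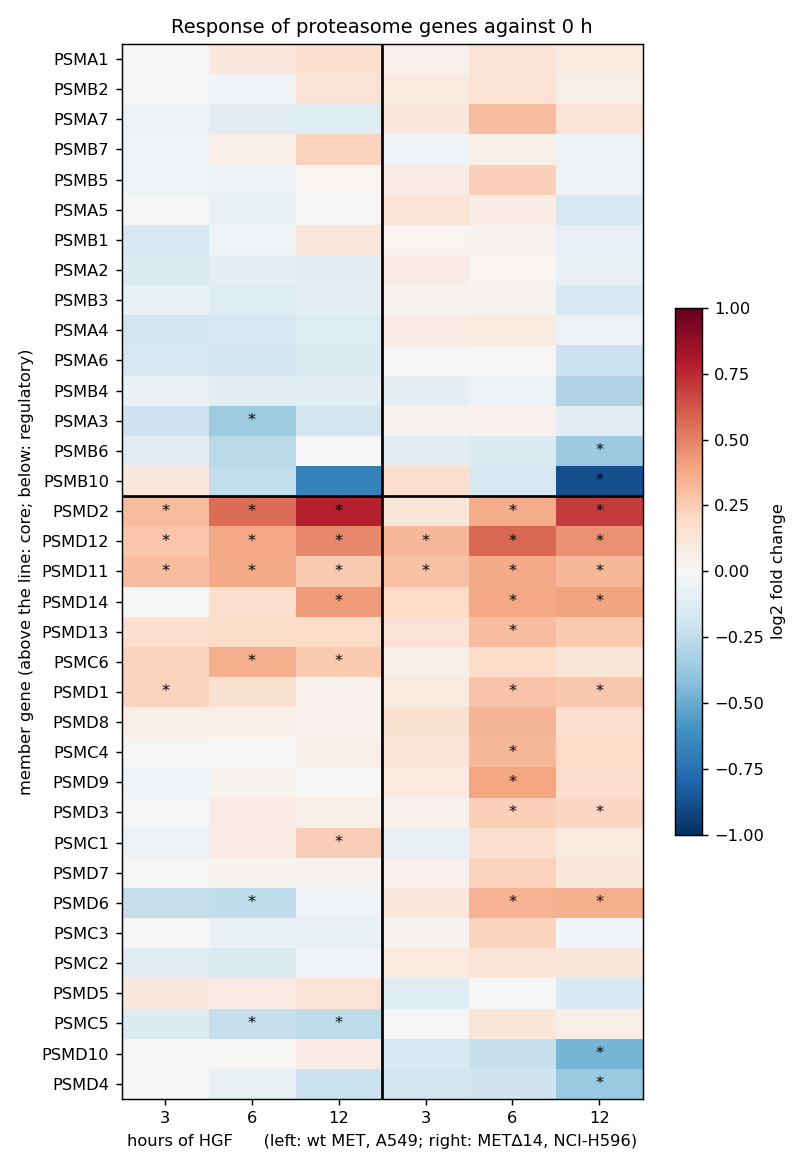
Log2 fold change of the 35 proteasome genes after 3, 6 and 12 h of HGF against 0 h of the same line (colour), with core genes above and regulatory genes below the black line and asterisks where the adjusted p was under 0.05. The asterisks on red fields all lie below the line, and PSMD2, PSMD12 and PSMD11 carry them in both lines.

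The scaffold gene PSMD2 (chr3:184299198-184309050 of hg38, plus strand) showed the largest rise of the 35 genes at 12 h in both lines. PSMD2 encodes a large subunit of the base, to which shuttle proteins carrying ubiquitinated substrates dock. Its replicates in wt MET cells stood at 175 and 221 CPM at 0 h, 247 and 245 at 3 h, 289 and 293 at 6 h and 356 and 323 at 12 h. Both libraries of each later time lay above both of 0 h, with a log2 fold change of 0.78 (SE 0.101) at 12 h (adjusted p = 5.20e-05). Those in MET∆14 cells stood at 370.3 and 398, 405 and 429, 507 and 487 and 621 and 624 CPM, with a log2 fold change of 0.70 (SE 0.10) at 12 h (adjusted p = 7.74e-05). The 12 h libraries, which differed in most proteasome genes, gave PSMD2 nearly the same level. The calls at 6 h in wt MET and at 12 h in both lines held under all 28 alternatives (27 for MET∆14 cells). The related scaffold PSMD1 moved less. At 3 h in wt MET cells its log2 fold change was 0.23 (adjusted p = 0.0300), and at 6 h in MET∆14 cells 0.28 (adjusted p = 0.00385).

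Several lid genes rose in both lines. PSMD12 (chr17:67337916-67366605, minus strand) had 233 and 282 CPM at 0 h, 299.7 and 325 at 3 h, 341 and 333 at 6 h and 361 and 359 at 12 h in wt MET cells (at 12 h, SE 0.0917, log2 fold change 0.48, adjusted p = 0.000916). PSMD12 in MET∆14 cells had 93.7 and 100.1, 128 and 117, 145 and 145 and 129 and 138 CPM (at 6 h, SE 0.0937, log2 fold change 0.58, adjusted p = 0.000152). Every later library lay above both of 0 h in each line, and the MET∆14 cells remained below every wt MET library throughout. PSMD11 (chr17:32444379-32483319, plus strand) was the only gene besides PSMD12 called at every time in both lines in the fit over all libraries. The 3 h call in wt MET cells held under 11 of the 28 alternatives for PSMD12 and 24 for PSMD11. It rose from 154 and 176 CPM to 205 and 203 at 3 h and 218 and 212 at 6 h in wt MET cells, and stood at 193 and 202 at 12 h. The MET∆14 libraries went from 71.0 and 71.9 to 87.2 and 87.6, 92.9 and 93.3 and 87.0 and 93.5 CPM. The log2 fold changes at 6 h were 0.38 (SE 0.0764) and 0.38 (SE 0.0785), and the levels of the later times did not overlap those at 0 h in either line. The deubiquitinase PSMD14 was called at 12 h in wt MET cells (log2 fold change 0.43, adjusted p = 0.00191) and from 6 h in MET∆14 cells (log2 fold change 0.39, adjusted p = 0.00293). Its CPM values were 279.9 and 319.9 at 0 h and 401 and 405 at 12 h in wt MET, and 118 and 119.8 at 0 h and 146 and 169 at 12 h in MET∆14 cells. After a correction for transcript length and GC content, PSMD14 was no longer called at 12 h in wt MET cells. PSMD3, PSMD13 and the ATPase PSMC4 were called higher in MET∆14 cells at 6 h, by 0.24, 0.31 and 0.33 on the log2 scale. The call of PSMD13 held under 10 of the 28 alternatives and was lost with DESeq2 and without any one of 13 of the 16 libraries, and those of PSMD3 and PSMC4 held under 22 each.

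**Figure D3:**
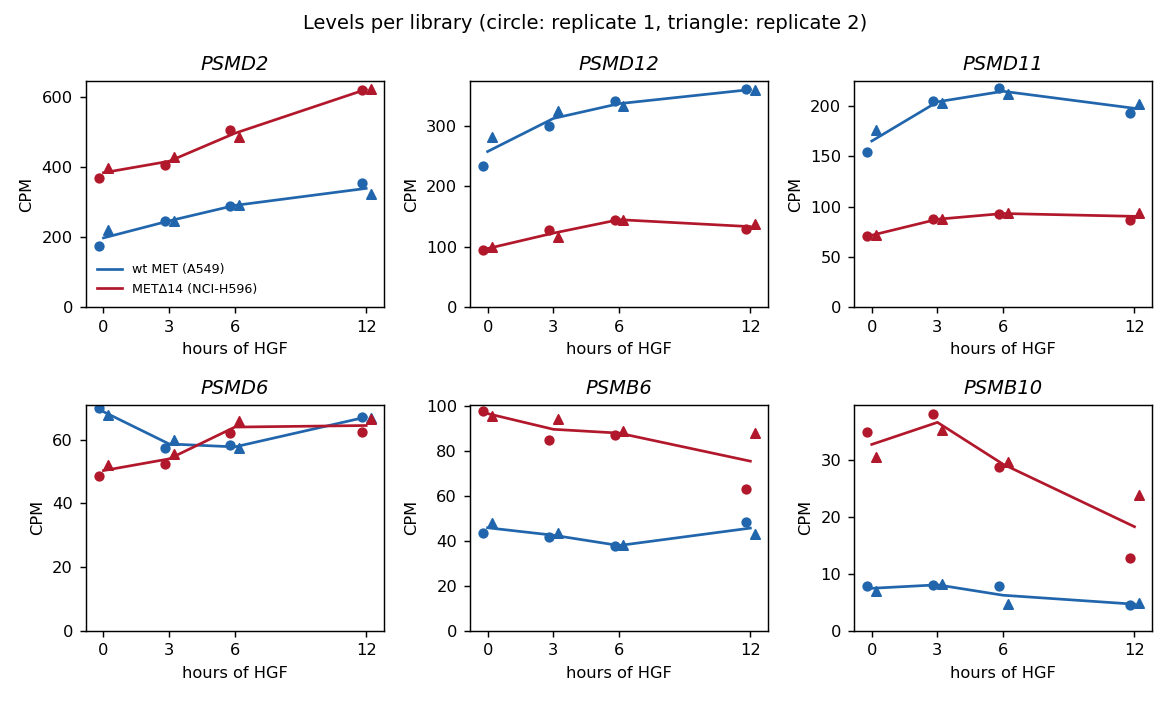
CPM of 6 proteasome genes in each library against hours of HGF, for wt MET (blue) and MET∆14 (red) cells, with circles for replicate 1, triangles for replicate 2 and lines through the means of the 2 replicates. PSMD2, PSMD12 and PSMD11 rise in both lines, PSMD6 moves in opposite directions, and the MET∆14 replicates of PSMB6 and PSMB10 part at 12 h.

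Among the ATPases, PSMC6 was higher in wt MET cells at 6 h (log2 fold change 0.36, adjusted p = 0.00294) and 12 h, with 95.9 and 101 CPM at 0 h and 131 and 121 at 6 h. PSMC5 fell in wt MET cells, by 0.23 at 6 h (adjusted p = 0.0454) and 0.26 at 12 h on the log2 scale. The 6 h call of PSMC5 held under 7 of the 28 alternatives. Its 12 h call held under 22 and was lost with the correction for length and GC content and without wt MET 0 h replicate 2 or either wt MET 12 h library. PSMC1 was called higher at 12 h in wt MET cells (log2 fold change 0.24, adjusted p = 0.0450), a call held under 12 of the 28 alternatives, but 83.2% of its transcript overlaps NRDE2 on the opposite strand, and its pseudogenes held as many counts as 16.4% to 28% of its own. Of the transcripts of PSMC5, PSMD7 and PSMD11, 13.7%, 51.6% and 2.73% also overlap a gene on the opposite strand. Whether the counting used strand is not given in the sources used here, so the values of these 4 genes, above all PSMC1, are uncertain. The ubiquitin receptor PSMD4 fell in MET∆14 cells, from 135 and 134 CPM at 0 h to 90.6 and 118 at 12 h (log2 fold change -0.37, adjusted p = 0.00804), a call lost in 4 of the 27 alternatives, among them those without 12 h replicate 1 or 0 h replicate 1. The wt MET libraries had 82.5 and 87.5 CPM at 0 h and 70.6 and 76.0 at 12 h (log2 fold change -0.22, adjusted p = 0.115). Of the chaperones that assemble the base, PSMD10 had 65.1 and 68.0 CPM at 0 h and 44.6 and 52.5 at 12 h in MET∆14 cells and was lower at 12 h (-0.46 on the log2 scale, SE 0.10, adjusted p = 0.00200). Its calls at 12 h held under all 27 alternatives. PSMD9, another of them, was higher at 6 h (24.3 and 25.2 against 32.3 and 32.9 CPM, adjusted p = 0.00894). PSMD5 passed no test after HGF, with 52.8 and 54.9 CPM at 0 h and 46.7 and 50.2 at 12 h.

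The promoters of these genes were searched for the sites of factors known to act on proteasome genes. RefSeq promoters of GRCh38.p14, which run from 250 bases before to 50 bases after the start, were matched for 32 of the 37 genes, 13 core and 19 regulatory. PSMA7, PSMB1, PSMB6, PSMB7 and PSMD4 were not matched. Each motif was searched on both strands, and matches of different motifs may overlap. The antioxidant response element, written as TGAC and GCA with any 3 bases between them, to which NFE2L1 and NFE2L2 bind with small MAF proteins, was found in 1 core promoter (PSMB3) and 4 regulatory promoters (PSMD1, PSMD12, PSMD3 and PSMD9). It was present in 3.18% of 35116 promoters of the same length. Stretches of 100 bases show the element in PSMD12, which rose in both lines, in PSMD9, which rose in MET∆14 cells, and, for the core, in PSMB3, which was not called after HGF. They are written 5′ to 3′ on the strand of the gene with the element in capitals. That of PSMD12 lies at chr17:67366688-67366787 on the minus strand, its element starting at position -165 from the start of the gene. That of PSMD9 lies at chr12:121888595-121888694 on the plus strand, with the element on the opposite strand from position -150. That of PSMB3 lies at chr17:38752592-38752691 on the plus strand, with the element from position -104.
PSMD12: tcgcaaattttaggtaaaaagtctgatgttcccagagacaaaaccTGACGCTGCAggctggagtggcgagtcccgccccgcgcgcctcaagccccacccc
PSMD9: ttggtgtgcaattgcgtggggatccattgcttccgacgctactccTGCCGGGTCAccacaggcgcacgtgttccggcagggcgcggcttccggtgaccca
PSMB3: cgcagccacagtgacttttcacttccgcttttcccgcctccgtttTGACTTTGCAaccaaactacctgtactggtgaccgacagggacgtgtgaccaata
PSMD2, PSMD11 and PSMD14, which also rose in both lines, had no match to these letters in the window. The box CCAAT, bound by NF-Y, was found in 7 core and 9 regulatory promoters and in 34.6% of all. The 7 include PSMB11, which was not tested for low counts. CCGGAAGT, an ETS site, was found in 1 core and 6 regulatory promoters, PSMD12 and PSMD14 among them, and in 4.14% of all. The core promoter was that of PSMA8, which had no counts and was not tested. CACGTG was in 1 promoter of each particle (7.26% of all), and the NRF1 palindrome, GCGCAT followed directly by GCGC, in 1 core promoter (1.24% of all). These matches describe the letters and were not tested.

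The median log2 fold change of the core genes was -0.06, -0.10 and -0.10 at 3, 6 and 12 h in wt MET cells and 0.05, 0.04 and -0.08 in MET∆14 cells. The regulatory medians were 0.01, 0.07 and 0.06, and 0.09, 0.26 and 0.17, beside -0.04, -0.05 and 0.00, and -0.05, -0.04 and -0.02 over all genes tested. In all 6 comparisons the core median lay below the regulatory median, by 0.07, 0.17 and 0.16 in wt MET and 0.05, 0.22 and 0.25 in MET∆14 cells. This order was kept under each of the 28 alternatives (27 at 12 h in MET∆14 cells), although the 3 h gap in MET∆14 cells shrank to 0.01 in 1 of them. The genes of a particle share libraries and are not replicates, so these medians carry no test.

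Summed over a particle, the levels separated in time in the same way. The 20 regulatory genes summed to 3317 and 3642 CPM in the wt MET replicates at 0 h, 3617 and 3654 at 3 h, 3819 and 3741 at 6 h and 3900.4 and 3973 at 12 h. The 15 core genes summed to 1838 and 2059.9, 1834 and 1831, 1869 and 1826 and 1933 and 1976. Regulatory sums at 6 and 12 h thus lay above both 0 h libraries, while no core sum after HGF did. Core sums lay below both 0 h libraries at 3 h, on either side of the lower one at 6 h and between them at 12 h. The regulatory genes of MET∆14 cells summed to 2044 and 2108 at 0 h, 2162 and 2223 at 3 h, 2493 and 2464 at 6 h and 2312 and 2657 at 12 h. The core genes summed to 2026 and 2018, 2052 and 2100.0, 2170.2 and 2132 and 1609 and 2233. Core and regulatory sums were nearly level in MET∆14 cells at 0 h and had parted by 6 h. As a mean over genes, core minus regulatory log2 CPM went from -0.53 and -0.49 at 0 h to -0.69 and -0.70 at 12 h in wt MET cells, and from 0.39 and 0.34 to 0.20 and 0.18 at 6 h in MET∆14 cells, with a pooled replicate SD of 0.06. The replicates of the later times did not overlap those of 0 h, apart from MET∆14 cells at 3 h. At 12 h the MET∆14 values were -0.06 and 0.17, both below every library of 0 to 3 h and further apart than any other pair.

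**Figure D4:**
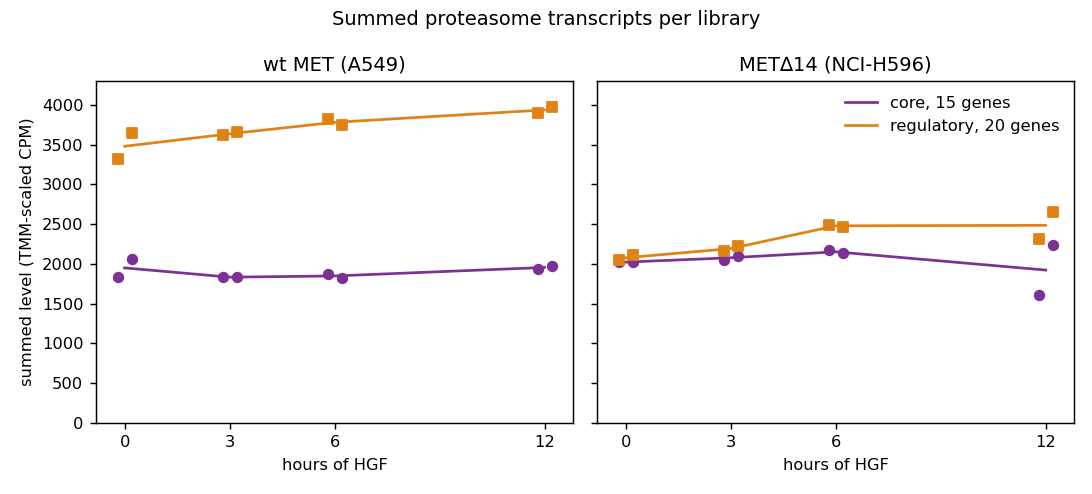
Summed TMM-scaled CPM of the 15 core genes (circles) and 20 regulatory genes (squares) in each library against hours of HGF, with lines through the means of the 2 replicates. The regulatory sum is higher at 6 and 12 h than at 0 h in both lines, and the core sum of MET∆14 cells at 12 h is split between 1609 and 2233.

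Single core genes passed the test in 3 instances in the fit over all libraries, each downwards. The gate subunit PSMA3 fell in wt MET cells at 6 h, from 58.7 and 70.1 to 51.3 and 49.5 CPM (-0.36 on the log2 scale, SE 0.0958, adjusted p = 0.00997), and had 95.6 and 89.0 CPM at 0 h and 97.5 and 92.8 at 6 h in MET∆14 cells. The immunoproteasome subunit PSMB10 (chr16:67934506-67936864, minus strand) fell in MET∆14 cells at 12 h. Its replicates had 35.0 and 30.6 CPM at 0 h, 38.1 and 35.3 at 3 h, 28.9 and 29.7 at 6 h and 12.8 and 23.8 at 12 h (-0.88 on the log2 scale, SE 0.221, adjusted p = 0.00638). Both 12 h replicates lay below every earlier library, though nearly a log2 unit apart from each other. In wt MET cells PSMB10 was at most 8.16 CPM throughout and had 4.53 and 4.84 CPM at 12 h (log2 fold change -0.68, adjusted p = 0.0818). PSMB6, which carries the caspase-like site, had 97.4 and 95.5 CPM at 0 h and 62.7 and 87.9 at 12 h in MET∆14 cells (log2 fold change -0.37, adjusted p = 0.0268), a call lost in 7 of the 27 alternatives, among them DESeq2, the correction for length and GC content and those without 12 h replicate 1 or either 0 h replicate. The other catalytic genes did not pass the test. PSMB5, with the chymotrypsin-like site, had 123 and 120.3 CPM at 0 h, 145 and 141 at 6 h and 97.2 and 139 at 12 h in MET∆14 cells. PSMB7, with the trypsin-like site, had 147 and 143, 151 and 149.7 and 113 and 167 at these times. In both genes the 6 h libraries lay above those at 0 h, and the 12 h replicates fell on either side of the 0 h level.

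The 12 h MET∆14 replicates differed in the level of every proteasome gene. All 35 were higher in replicate 2 than in replicate 1, as were 45.4% of all genes tested, by a median of 0.49 on the log2 scale for the core and 0.21 for the regulatory genes. In replicate 1, 14 of the 15 core genes were below both 0 h libraries and 0 above, beside 46% and 43% of all genes tested. In replicate 2, 2 were below and 11 above, beside 49.1% and 38.9%. Of the regulatory genes, 8 were above both 0 h libraries and 8 below in replicate 1, against 17 and 3 in replicate 2. Tested with replicate 1 left out, 15 of the 35 were higher and 2 lower at 12 h (42.9% and 5.71%, beside 17.3% and 21.1% of all genes). With replicate 2 left out, 6 were higher and 15 lower (17.1% and 42.9%, beside 22.5% and 23.8%). In both fits the lone library was assumed to vary like the other groups. Without 0 h replicate 1, 1 gene was lower. The direction of the core genes in MET∆14 cells at 12 h thus changed with the library left out. Their median log2 change against the 0 h mean was -0.32 in replicate 1 and 0.10 in replicate 2. The regulatory genes shifted as well, with medians of -0.02 and 0.30.

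**Figure D5:**
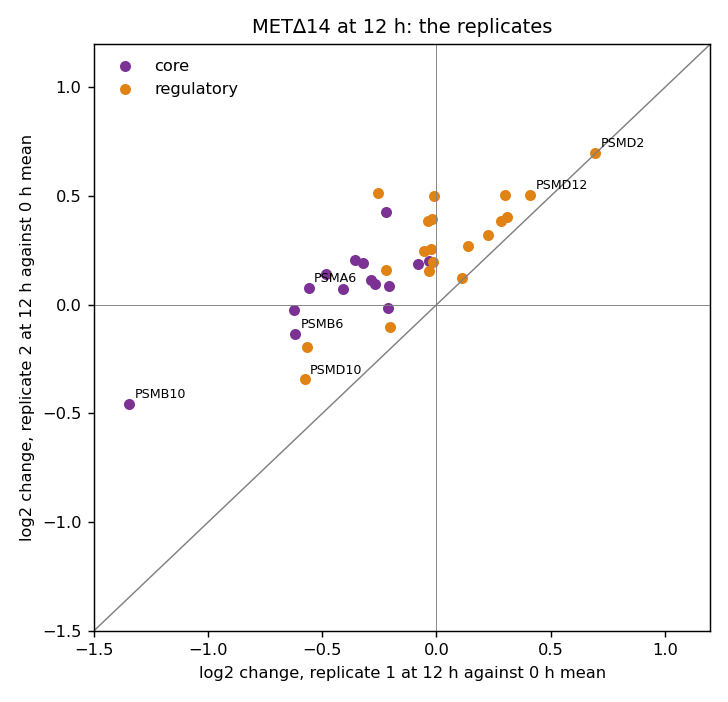
Log2 change of the 35 proteasome genes in MET∆14 cells at 12 h against the mean of the 0 h libraries, replicate 1 (horizontal) against replicate 2 (vertical), with core genes in purple, regulatory genes in orange and the line of equality in grey. Every gene lies above the line, and PSMD2 lies nearly on it.

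Taking the 3 times together with an F test in each line, 6 proteasome genes were higher and 2 lower in wt MET cells, beside 19.2% and 21.1% of all genes tested. In MET∆14 cells, 8 were higher and 3 lower, beside 25.6% and 28.5%. Lower genes were few in the set, at 5.71% and 8.57% of it. Without both 12 h MET∆14 libraries, the F test in MET∆14 cells covered 3 and 6 h only, so its counts are not those of the same test. By it, 18 were higher and 0 lower in MET∆14 cells (51.4% and 0%, beside 29.5% and 26.7%). In wt MET cells, 7 were then lower, beside 28.5%, while 26.5% of all genes were higher. Leaving out single libraries moved the higher genes to 3 in wt MET cells (without 0 h replicate 1), and in MET∆14 cells to 4 (without 0 h replicate 1) and 16 (without either 12 h library). The lower genes in MET∆14 cells numbered 12 without 12 h replicate 2. The lower genes of wt MET cells numbered 7 without either 12 h MET∆14 library and 0 without any one of 13 other libraries. PSMD11, PSMD14, PSMD6, PSMD1, PSMD2 and PSMD12 were called in both lines, and all but PSMD6 moved in 1 direction. PSMC6 and PSMA3 passed the threshold in wt MET but not in MET∆14 cells, and PSMD10, PSMD3, PSMD9, PSMD4 and PSMB10 in MET∆14 but not in wt MET cells. Of these 7, PSMD10 was the only one whose response differed between the lines past the threshold over the 3 times. The calls of PSMA3, PSMD3, PSMD9 and PSMD4 held under 10, 12, 12 and 10 of the 28 alternatives. In wt MET cells, those of PSMD6 and PSMD1 held under 12 and 18. In the model with line and time as additive terms, 5 were higher and 1 lower over both lines, beside 13.4% and 17.2%. These were PSMD2, PSMD12, PSMD11, PSMD14 and PSMC6, and PSMB10 downwards. Without 12 h MET∆14 replicate 1, 8 were higher, and without replicate 2, 2 were lower.

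The remaining 22 tested genes were called in neither line over the 3 times. They were the core genes PSMA1, PSMA2, PSMA4, PSMA5, PSMA6, PSMA7, PSMB1, PSMB2, PSMB3, PSMB4, PSMB5, PSMB6 and PSMB7, and the regulatory genes PSMC1, PSMC2, PSMC3, PSMC4, PSMC5, PSMD5, PSMD7, PSMD8 and PSMD13. Of these, PSMC1, PSMC4, PSMC5, PSMD13 and PSMB6 were called at 1 or 2 of the times, as given above. PSMA7, the highest gene per length in MET∆14 cells, had 303 and 304 CPM at 0 h, 372 and 380.4 at 6 h and 260.5 and 408 at 12 h there (log2 fold change 0.31, adjusted p = 0.0794 at 6 h). Its 6 h replicates lay above both of 0 h, and without the 12 h pair it was called higher at 3 and 6 h. The 12 h replicates of PSMA7 fell on either side of the 0 h level, by -0.22 and 0.43 on the log2 scale.

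A difference between the lines in the response to HGF passed the F test over the 3 times in 3 genes, 2 of them higher and 1 lower in MET∆14 relative to wt MET cells, beside 20.3% and 17.3% of all genes tested. The lid gene PSMD6 (chr3:64010550-64024010, minus strand) moved in opposite directions. Its wt MET replicates had 70.0 and 67.7 CPM at 0 h, 57.4 and 60.1 at 3 h, 58.2 and 57.3 at 6 h and 67.3 and 67.0 at 12 h, with a fall called at 6 h (log2 fold change -0.25, adjusted p = 0.0207). Its MET∆14 replicates had 48.6 and 52.1, 52.5 and 55.5, 62.1 and 65.9 and 62.3 and 66.7 CPM, with a rise called at 6 and 12 h (log2 fold change 0.35, adjusted p = 0.00202 at 6 h). The difference of the responses was 0.60 (SE 0.110) on the log2 scale at 6 h (adjusted p = 0.000744), and the lines, well apart at 0 h, lay close to each other at 12 h. PSMD10 differed by -0.54 (SE 0.140) at 12 h (adjusted p = 0.0107), and was lower in MET∆14 cells. PSMD10 in wt MET cells had 76.3 and 80.1 CPM at 0 h and 78.9 and 86.5 at 12 h. PSMD1 differed in its time course (adjusted p = 0.0300), with 109.97 and 113 CPM at 0 h in wt MET cells, 129 and 133 at 3 h and 115 and 114 at 12 h. PSMD1 in MET∆14 cells had 90.3 and 90.0 at 0 h, 96.0 and 96.1 at 3 h and 105 and 113 at 12 h. At 6 h, 3 genes differed upwards and 0 downwards, beside 16.4% and 13.8% of all genes, and at 12 h PSMD6 alone upwards and PSMD10 alone downwards, beside 13% and 11%. Beside PSMD6, PSMC5 and PSMA3 differed at 6 h, by 0.35 (adjusted p = 0.0347) and 0.40 (adjusted p = 0.0333) on the log2 scale. Without both 12 h MET∆14 libraries, the F test of the difference covered 3 and 6 h only. By it, 10 genes responded more in the upward direction in MET∆14 cells and 0 in the downward direction (28.6%, beside 24.1% and 18.4%). PSMD6 was the only one of the 3 still called. Without 12 h replicate 2 alone, 13 differed upwards and 11 downwards, without replicate 1 alone 12 and 0, and without single other libraries between 1 and 4 upwards (4 without wt MET 0 h replicate 1) and at most 1 downwards.

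Genes that work with the proteasome were followed as fixed lists, whose counts over the 3 times stand beside the shares of all genes given above. Without the 12 h MET∆14 pair, the counts for MET∆14 cells and for differences between the lines cover 3 and 6 h only. None of the 5 chaperones of core assembly was called over the 3 times in wt MET cells, although 2 were lower at 6 h, and 1 was higher and 2 lower over the 3 times without both 12 h MET∆14 libraries. PSMG1, PSMG3 and PSMG4 rose in MET∆14 cells. All 3 differed between the lines, also without both 12 h MET∆14 libraries. PSMG4 had 14.3 and 18.0 CPM at 0 h and 36.3 and 25.9 at 12 h in MET∆14 cells, and 9.69 and 7.99 at 0 h and 7.57 and 8.07 at 12 h in wt MET cells, a difference of 1.13 (adjusted p = 0.00438) in the log2 response at 12 h. POMP, the chaperone that matures the β subunits, was higher at 6 h in MET∆14 cells (log2 fold change 0.36, adjusted p = 0.0187) but not over the 3 times (adjusted p = 0.0649). Without the 12 h pair it was called over the remaining times too (adjusted p = 0.00944). The ubiquitin receptor ADRM1 rose in MET∆14 cells from 180.2 and 175 to 266 and 268 CPM at 6 h (log2 fold change 0.59, adjusted p = 0.00112), and SEM1 was called in neither line. Without the 12 h pair both were called over the 3 times in wt MET cells, SEM1 upwards and ADRM1 downwards (adjusted p = 0.0324 and 0.00728).

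Of 17 activators and associated proteins, 3 rose and 5 fell in wt MET cells (8 and 5 without the 12 h MET∆14 pair), and 11 rose and 4 fell in MET∆14 cells (12 and 2 without the 12 h pair). The nuclear activator PSME3 had 95.4 and 104 CPM at 0 h and 169 and 172 at 6 h in MET∆14 cells (log2 fold change 0.78, adjusted p = 5.77e-06) against 297 and 329.5 at 0 h and 319.6 and 322 at 6 h in wt MET cells. The log2 responses differed by 0.74 (adjusted p = 0.000347). PSME4, another activator, rose in both, by 0.66 in wt MET and 0.48 in MET∆14 cells at 6 h on the log2 scale. UBQLN2, a shuttle for ubiquitinated proteins, fell in MET∆14 cells (log2 fold change -0.42, adjusted p = 0.000779 at 12 h). The interferon-inducible activator subunits PSME1 and PSME2 fell in both lines, at 12 h by 1.04 and 0.77 in wt MET and 0.55 and 0.39 in MET∆14 cells on the log2 scale. The inducible PSMB8 fell with them, with 132 and 107 CPM at 0 h and 50.3 and 79.0 at 12 h in MET∆14 cells and 6.22 and 4.45 at 0 h and 2.29 and 2.83 at 12 h in wt MET cells. PSMB9 had 80.5 and 65.2 CPM at 0 h and 25.7 and 53.1 at 12 h in MET∆14 cells (log2 fold change -0.91, adjusted p = 0.00958), and was under 1 CPM in every wt MET library. The 12 h MET∆14 replicates of these 4 genes lay below both of 0 h, replicate 1 the furthest. Without the 12 h pair PSMB9 was still called lower in MET∆14 cells over the remaining times (adjusted p = 0.00847), whereas PSME1, PSME2 and PSMB8 were not (adjusted p = 0.276, 0.221 and 0.163). At 0 h all 4 were higher in MET∆14 cells, PSMB8 by 4.48 (SE 0.228) and PSME1 by 2.56 (SE 0.183) on the log2 scale.

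Of 10 transcription factors and proteins that process them, 8 rose and 1 fell in wt MET cells (8 and 1 without the 12 h MET∆14 pair), and 5 rose and 3 fell in MET∆14 cells (6 and 2 without the 12 h pair). NFE2L1, which drives proteasome genes when proteasomes are short, fell in both lines. It had 347 and 296 CPM at 0 h and 179 and 194 at 6 h in wt MET cells (log2 fold change -0.79, adjusted p = 2.10e-05). NFE2L1 in MET∆14 cells had 386 and 345 CPM at 0 h and 225 and 227 at 12 h (log2 fold change -0.69, adjusted p = 5.11e-05). These are transcript levels, whereas the activity of NFE2L1 is set by processing of the protein. The related NFE2L2 fell in MET∆14 cells, from 339 and 319.97 to 186 and 176 CPM at 6 h (log2 fold change -0.86, adjusted p = 3.60e-07), and rose in wt MET cells (log2 fold change 0.27, adjusted p = 0.0111). Their partner MAFF showed the largest mean rise of the list in both lines, reaching 107 and 99.8 CPM at 3 h in MET∆14 cells from 25.7 and 22.8 at 0 h, and 319 and 317 at 6 h in wt MET cells from 161 and 234. Of 9 genes of ubiquitin and its delivery, 3 rose and 0 fell in wt MET cells (4 and 2 without the 12 h MET∆14 pair), and 1 rose and 2 fell in MET∆14 cells (5 and 2 without the 12 h pair). UBA6, an enzyme that activates ubiquitin, rose in both lines, by 0.63 (adjusted p = 0.000447) at 3 h in wt MET and 0.96 (adjusted p = 2.23e-06) at 12 h in MET∆14 cells on the log2 scale, and the ubiquitin gene UBB fell in MET∆14 cells (log2 fold change -0.54, adjusted p = 0.00613 at 12 h). The 12 h calls of PSMG4, UBQLN2, PSMB8, PSMB9, NFE2L1, UBA6 and UBB in MET∆14 cells were kept with either 12 h library left out, and those of PSME1 and PSME2 were lost without replicate 1.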

How the data were processed

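RNA was extracted with a QIAGEN RNeasy kit and sequenced from Illumina TruSeq libraries. STAR 2.5.0, RSEM 1.3.2 and hg38 are named in the submitters' processing notes. The counts deposited by the authors are whole numbers per gene without normalization, and they may be rounded RSEM estimates. Use of strand is not given in the sources used here.

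In R 4.3.3, edgeR 4.0.16 was run with filterByExpr (minimum count 10, minimum total 15), TMM factors and a robust quasi-likelihood fit of 1 coefficient per condition over 16 libraries. The common biological coefficient of variation was 0.0868, and adjusted p-values are those of Benjamini and Hochberg with a threshold of 0.05. Log2 CPM used a prior count of 2. Depth ranged from 10158590 to 23909304 counts. Nothing says how the biological replicates were grown, so p-values measure the spread between these libraries, which may be technical. A count of 0 was taken to allow 3 counts, which covers counting error only. RPKM used MANE Select lengths. The code was tested on simulated data.

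The members, the 6 further lists (core assembly chaperones, other subunits, activators and associated proteins, inducible subunits, transcription factors and their processing, ubiquitin and its delivery) and the tests were chosen with earlier results of these data known. Named with values were the catalytic, inducible, tissue-restricted, receptor, deubiquitinase, scaffold and chaperone members, the 3 largest mean rises and falls per line among genes called over the 3 times, the same for differences between the lines and for 0 h, and each further list's largest rise and fall per line with 8 fixed genes. Other members given values were named after these had been seen. Alternatives were DESeq2 1.42.0, its size factors, library size alone, other count filters, each line alone, the replicate number as a block, each library left out, pseudogene counts added to the parent gene, a minimum log2 change of 0.25 and a prior count of 0.5. A correction for length and GC content, alone and with the block, and the fit without both 12 h MET∆14 libraries were added after seeing the data. Figures were drawn with matplotlib 3.10.9 in Python 3.11.15. Cells with amplified MET, which the study also profiled, are not analysed here.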

Additional observations from a re-analysis of the deposited data

Results flagged for a closer look

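The response to HGF differed between the lines in 3 of the 35 proteasome genes by edgeR's quasi-likelihood F test of the 3 differences with Benjamini-Hochberg adjustment. Averaged over 3, 6 and 12 h, the log2 response of MET∆14 cells minus that of wt MET cells was 0.441 for the lid gene PSMD6 (adjusted p = 0.00382). It was positive at each time (0.33, 0.60 and 0.39), and the call held under all 27 alternatives. For the base chaperone PSMD10 it was -0.307 (adjusted p = 0.0316). For the scaffold PSMD1 it was 0.0725 (adjusted p = 0.0300), whose times differed by -0.14, 0.13 and 0.23. The calls of PSMD10 and PSMD1 were lost with the replicate block. They were not made without both 12 h MET∆14 libraries either, but that fit tests 3 and 6 h only. It leaves out 12 h, where both genes differed the most, so it cannot show whether the calls are firm. That of PSMD10 was also lost in 13 of the 16 single-library omissions, and that of PSMD1 in 9 of them, with no filter and with a minimum change of 0.25.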

How the results depend on the processing

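Counts of proteasome genes called higher are written first and lower second. DESeq2 gave 1 lower over the 3 times in wt MET cells and 2 lower in the additive model, and its size factors gave 1 lower over the 3 times in wt MET cells. With at least 10 counts in every library, 1 gene was lower at 6 h in MET∆14 and 1 over the 3 times in wt MET cells, and pseudogene counts gave 1 lower at 6 h in MET∆14 cells. With no filter, 3 were higher at 12 h, 1 lower at 6 h and 1 lower over the 3 times in wt MET cells, and 1 differed upwards between the lines. With library size alone, wt MET cells had 0 higher and 2 lower at 3 h, 5 lower at 6 h, and 3 higher and 3 lower at 12 h. MET∆14 cells had 4 higher and 2 lower at 6 h, and the additive model 2 lower. A minimum change of 0.25 left 5 higher in MET∆14 and 1 lower in wt MET cells over the 3 times, and 1 upward difference. Each line alone gave wt MET cells 1 lower at 3 h, 7 higher at 6 h, 3 lower at 12 h and 5 lower over the 3 times, and MET∆14 cells 2 lower at 12 h and 1 lower over the 3 times.

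Without both 12 h MET∆14 libraries, wt MET cells had 1 lower at 3 h, 7 higher and 5 lower at 6 h, 3 lower at 12 h and 7 lower over the 3 times. MET∆14 cells had 7 higher at 3 h, and 21 higher and 2 lower at 6 h. Over 3 and 6 h, the times left to test, they had 18 higher and 0 lower, with 10 upward and 0 downward differences between the lines. The additive model had 8 higher. The correction for length and GC content, which covered 99.8% of genes, gave wt MET cells 1 lower at 3 h, 7 higher at 6 h, and 10 higher and 0 lower at 12 h. MET∆14 cells had 16 higher and 1 lower at 6 h, 14 higher at 12 h and 15 higher over the 3 times, with 4 upward differences, 8 higher in the additive model and a core minus regulatory median of -0.32 at 12 h.

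The replicate block gave 1 higher at 3 h and 1 lower over the 3 times in wt MET cells, and 1 upward and 0 downward differences. Block and correction together gave wt MET cells 1 lower at 3 h, 7 higher at 6 h, and 10 higher and 0 lower at 12 h, and MET∆14 cells 16 higher at 6 h, and 13 higher and 2 lower at 12 h, with 8 higher in the additive model and a core minus regulatory median of -0.32 at 12 h. Same-numbered libraries did not deviate together, with correlations of -0.0528 to 0.0345 in wt MET and -0.159 to 0.0350 in MET∆14 cells, and 0 of 6 pairs over 0.1 in either line, so the numbers were not taken to pair them.

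Leaving out 1 library at a time gave wt MET cells 0 to 6 higher and 0 to 1 lower at 3 h, 3 to 7 and 0 to 5 at 6 h, 3 to 9 and 0 to 3 at 12 h, and 3 to 9 and 0 to 7 over the 3 times. MET∆14 cells had 0 to 3 higher and 0 to 1 lower at 3 h, 5 to 17 and 0 to 2 at 6 h, 5 to 15 and 1 to 15 at 12 h, and 4 to 16 and 2 to 12 over the 3 times. Differences between the lines ranged from 1 to 13 upwards and 0 to 11 downwards, and the additive model from 4 to 8 and 1 to 2. The core minus regulatory median at 12 h in wt MET cells ranged from -0.176 to -0.0943, and it was below 0 in all settings of all 6 comparisons. Without 12 h replicate 1, PSMB5 in MET∆14 cells at 12 h turned to 0.19 on the log2 scale (adjusted p = 0.0455, edgeR), against -0.33 without replicate 2. Of 3996 values of named genes under alternatives, 3758 stayed on the same side of the threshold, 133 lost and 104 gained the call. The other 1, that of PSMB5, was called in the direction opposite to its uncalled value over all libraries. PSMA7 and PSMD8 were not among the genes of this tally. At 12 h in MET∆14 cells their log2 fold changes were 0.14 and 0.17 over all libraries. Replicate 1 alone stood at -0.22 and -0.26 against the 0 h mean. Values that were not called may have turned their sign. The cause of these shifts was not tested. With 2 libraries a condition, small changes of single genes are below what these data resolve.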
